A study of Mus musculus with 35 samples.

Results

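This account describes 1335 genomic regions without a KLF4 peak at day 3 of reprogramming of mouse fibroblasts. They had one at day 9 and in embryonic stem cells (ESC). All KLF4 peaks of the 8 libraries of day 3, day 6, day 9 and serum ESC on chromosomes 1 to 19 and X were merged wherever they shared at least 1 bp, which gave 72197 regions. A region was kept when it had no peak in the 2 day 3 libraries and a peak in both day 9 and both serum ESC libraries, whatever day 6 showed. Of the 1335 regions, 419 had a KLF4 peak in both day 6 libraries, 502 in 1 of them and 414 in neither. The regions were chosen by the presence of KLF4 peaks at day 3, day 9 and in serum ESC, so that presence is no finding. The acetylation libraries, the KLF4 libraries of day 6 and those of ESC in 2i were not used in the choice.

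The cells were mouse embryonic fibroblasts (MEF) of strain C57BL/6 x 129 and genotype OKSM Col1a1/M2rtTA ROSA26, which carry a cassette of Pou5f1, Klf4, Sox2 and Myc that doxycycline switches on. MEF libraries came from unsorted cells without doxycycline. Cells of day 3 (unsorted) and of days 6 and 9 (sorted for SSEA+) had been kept in ESC medium to which doxycycline (1 µg/ml) and ascorbic acid (50 µg/ml) were added, so the KLF4 bound in them can include protein made from the cassette. The ESC were unsorted cells of genotype V6.5 and the same strain, without the cassette in their label, grown on irradiated feeder cells with serum and LIF, and for the 2i libraries with 1 µM MEK inhibitor and 3 µM GSK3 inhibitor in addition. KLF4 and acetylation of histone H3 at lysine 27 (H3K27ac) had been mapped by chromatin immunoprecipitation and sequencing, with 2 KLF4 libraries at each stage, and with 3 H3K27ac libraries each at days 3 and 6 and 2 each in MEF, day 9 cells and serum ESC. The labels name the batches of the libraries EC-DG-3458, EC-EA-3702, EC-DG-4040, EC-EA-2697, EC-EA-2643 and EC-DG-3012, and both day 9 H3K27ac libraries are of EC-EA-3702 while all MEF and ESC ones are of EC-DG-3458. The labels do not say whether the libraries of a stage came from separate cultures, so the tests measure the spread between libraries, which may be technical.

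KLF4 is a zinc finger transcription factor that binds GC-rich sites, often written GGGNGTG, in promoters and enhancers. In ESC it is part of the network of factors that holds pluripotency, along with KLF2, KLF5, NANOG, ESRRB and others, and in epithelial tissues it drives barrier genes. H3K27ac marks promoters and enhancers that are active, and a region that gains the mark during reprogramming is usually read as a regulatory element being switched on.

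Only a few of the regions lay at promoters of the genes on the lists used here, and those promoters are shown because the merged KLF4 region covered all of the bases printed. They belong to Nanog (pluripotency factor), Nr5a2 (nuclear receptor that can stand in for Pou5f1 in reprogramming), Cldn4 (tight junction claudin), Krt8 (keratin of simple epithelia) and Snai1 (repressor of epithelial genes). Each line holds the 250 bases before the annotated start, 5′ to 3′ on the strand of the gene, from RefSeq promoter sequences of GRCm38.p6, and capitals mark GGGNGTG or its reverse complement CACNCCC.
Nanog, chr6:122707315-122707564, + strand: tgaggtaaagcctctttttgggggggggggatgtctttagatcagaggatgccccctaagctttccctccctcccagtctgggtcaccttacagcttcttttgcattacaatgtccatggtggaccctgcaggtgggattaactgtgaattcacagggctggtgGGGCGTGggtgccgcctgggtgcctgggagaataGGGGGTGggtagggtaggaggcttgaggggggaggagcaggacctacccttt
Nr5a2, chr1:136953631-136953880, - strand: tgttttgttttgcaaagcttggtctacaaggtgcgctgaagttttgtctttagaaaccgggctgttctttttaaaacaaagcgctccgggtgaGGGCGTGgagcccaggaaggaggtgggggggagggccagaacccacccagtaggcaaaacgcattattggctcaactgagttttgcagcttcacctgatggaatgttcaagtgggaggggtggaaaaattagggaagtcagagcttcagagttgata
Cldn4, chr5:134946935-134947184, - strand: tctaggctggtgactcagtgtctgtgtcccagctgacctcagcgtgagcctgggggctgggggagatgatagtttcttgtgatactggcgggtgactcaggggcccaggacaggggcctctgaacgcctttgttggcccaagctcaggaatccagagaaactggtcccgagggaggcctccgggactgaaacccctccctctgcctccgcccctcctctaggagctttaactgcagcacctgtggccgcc
Krt8, chr15:102004343-102004592, - strand: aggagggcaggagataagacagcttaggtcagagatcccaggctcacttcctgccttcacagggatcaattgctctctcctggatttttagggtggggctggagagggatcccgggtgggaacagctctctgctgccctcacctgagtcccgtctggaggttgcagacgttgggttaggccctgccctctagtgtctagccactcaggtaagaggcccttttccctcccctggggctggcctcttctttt
Snai1, chr2:167537945-167538194, + strand: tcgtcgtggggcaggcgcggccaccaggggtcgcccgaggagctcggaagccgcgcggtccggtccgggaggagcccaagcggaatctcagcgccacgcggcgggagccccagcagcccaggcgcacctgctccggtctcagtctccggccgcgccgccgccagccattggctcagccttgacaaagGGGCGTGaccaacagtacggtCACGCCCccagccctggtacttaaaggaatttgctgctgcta
The Nanog stretch holds 2 matches, beginning 86 and 52 bases before this start, and the Snai1 stretch holds 2 in opposite orientations, beginning 63 and 42 bases before the start. Nr5a2 has 1 match, beginning 157 bases before the start. No match to these letters stands in the printed stretches of Cldn4 and Krt8, although the merged regions covered both.

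The regions were not the strongest KLF4 sites of their lists. The authors gave each peak a −log10 p-value, which depends on depth, and depth is unknown. Peaks are therefore ranked within 1 list. Raw values printed below for single regions are not comparable between libraries and do not measure a change of occupancy. Ranked within its list, with 100 for the strongest peak, the median peak of these regions stood at the 53.3 and 56.0 percentile in the day 9 libraries, and at 60.1 (EC-EA-2697) and 76.2 (EC-EA-2643) in serum ESC. Regions with a peak in all 8 libraries, 5665 in number, stood at 79.8 and 81.9 at day 9. The lowest raw −log10 p of the 4 required peaks, taken across their lists, had a median of 4.33, from 2.01 to 42.0. Just outside the rule lay 1472 regions that differed only by a peak in 1 day 3 library, 709 that had a peak in 1 of the 2 day 9 libraries and 1024 that had one in 1 of the 2 ESC libraries. Of the last, 932 had their peak in the EC-EA-2643 library. The number of regions therefore leans on single lists: it was 2448 without the day 3 library of EC-EA-3702 and 2268 without the ESC library of EC-EA-2697.

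At day 6 the KLF4 occupancy of these regions was partial and differed between the libraries. A KLF4 peak was found in 40.4% of the regions in the EC-EA-3702 library and in 59.9% in the EC-DG-4040 library. Both libraries together marked 31.4% of the regions, against 20.7% of all merged KLF4 regions, and neither marked 31.0%, against 58.8%. Of the 502 regions with a peak in 1 day 6 library, 381 (75.9%) had it in EC-DG-4040. The regions with a peak in both day 6 libraries had the higher KLF4 ranks later on: their median percentile was 72.3 and 74.2 in the day 9 libraries, against 39.1 and 36.5 for those with none, and 67.0 and 78.9 in serum ESC, against 55.5 and 72.0.

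Acetylation of these regions was infrequent in fibroblasts and frequent at day 9. No H3K27ac peak in either MEF library and a peak in both day 9 libraries were found at 625 of the 1335 regions (46.8%), against 17.1% of all merged KLF4 regions. An H3K27ac peak overlapped 13.0% and 13.3% of them in the 2 MEF libraries. The day 3 shares were 10.5% (EC-EA-3702), 8.5% and 6.2%, and those of day 6 were 7.3%, 6.0% and 14.0% (EC-EA-3702). All libraries of these 3 stages stand at or below 14.0%, with both MEF libraries above all 3 day 3 libraries and the day 6 libraries overlapping both. Day 9 libraries had 63.9% and 65.2%, and serum ESC libraries 69.1% and 67.1%. Every day 9 and ESC library stood above every earlier library, and the ESC libraries stood slightly above those of day 9. The order of day 9 and ESC turned with the processing: the means were 45.9% and 32.0% when an overlap of 50% of the shorter interval was required, 56.5% and 52.1% with 200 bp about each centre, and 65.8% and 61.6% without the ESC KLF4 library of EC-EA-2697. The low early shares leaned on the day 3 KLF4 library of EC-EA-3702, without which the 2448 regions had means of 34.2% in MEF, 29.7% for day 3, 27.9% for day 6, 74.2% for day 9 and 74.9% for ESC. The mean was 13.1% ± 0.159 (SD, n = 2) for MEF, 8.41% ± 2.14 (n = 3) for day 3, 9.11% ± 4.29 (n = 3) for day 6, 64.5% ± 0.900 (n = 2) for day 9 and 68.1% ± 1.43 (n = 2) for ESC.

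The differences between stages were larger than the spread between libraries (between-stage F of 306 over 12 libraries, exact permutation p = 0.00129, 0.00215 after Benjamini-Hochberg adjustment over 5 tests). From day 3 to day 9 the share rose by a fitted 8.65 points a day (exact permutation over 8 libraries, two-sided p = 0.0161, adjusted p = 0.0161), although the library values show that nearly all of the rise fell between day 6 and day 9. This slope missed the threshold with labels permuted within batches (exact p = 0.0694, slope unchanged), without the second day 3 library of EC-DG-3458 (9.17 points per day, exact p = 0.0571) and without either day 9 library (7.15 and 6.99 points per day, exact p = 0.0643 in both cases). Within batch EC-EA-3702 alone the day 3 share was 10.5%, the day 6 share 14.0% and the day 9 shares 63.9% and 65.2%. In a population of cells, fewer cells with the mark and less of it per cell cannot be told apart. Cells of days 6 and 9 were sorted for SSEA+ and those of MEF, day 3 and ESC were not. In comparisons between sorted and unsorted stages, stage and sorting cannot be told apart.

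**Figure D1:**
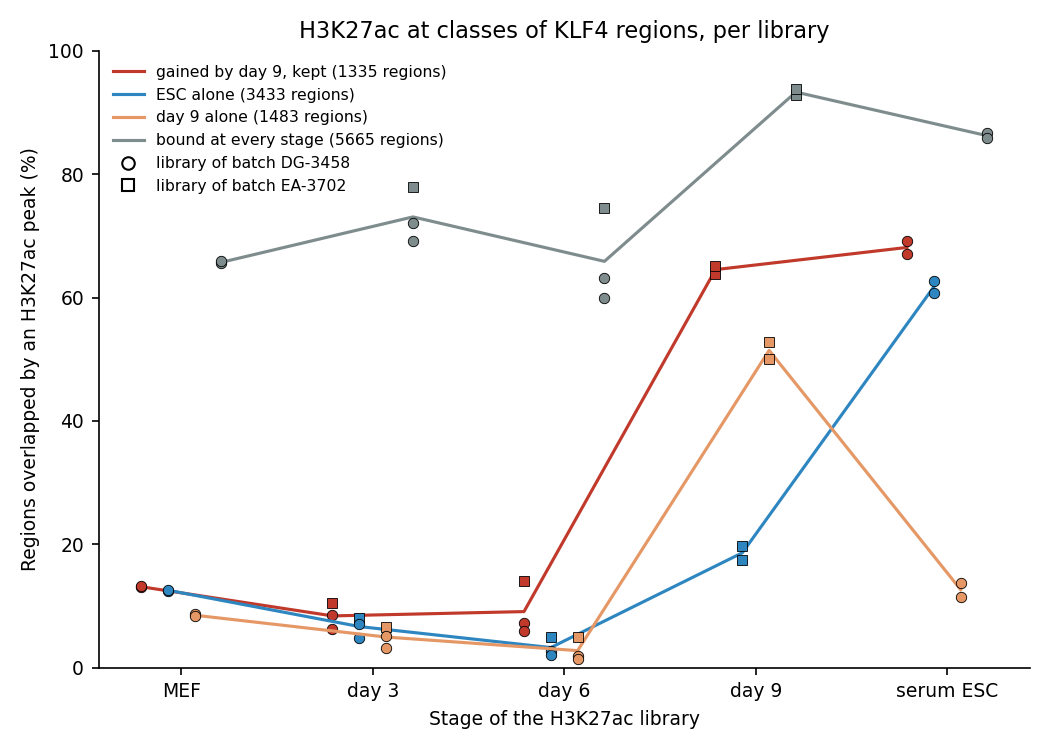
Percent of regions overlapped by an H3K27ac peak (y axis) in each library, by stage (x axis), for KLF4 regions gained by day 9 and kept, for regions with KLF4 in ESC alone or at day 9 alone, and for regions bound at every stage. Points are libraries with their batch as the symbol, and lines join stage means. The gained and kept regions stay at or below 14.0% up to day 6 and stand at 63.9% to 69.1% from day 9 on.

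Counted by region, 783 of the 1335 (58.7%) had H3K27ac in both day 9 libraries, against 41.1% of all merged KLF4 regions, and 837 (62.7%) had it in both ESC libraries, against 36.2%. In MEF, 1142 regions (85.5%) had no H3K27ac peak in either library, against 66.5% of all merged regions, and 158 (11.8%) had one in both, against 29.8%. Neither day 9 library had a peak at 395 regions (29.6%, background 51.0%) and neither ESC library at 353 (26.4%, background 56.9%). H3K27ac in both day 9 and both ESC libraries was found at 587 regions (44.0%, background 26.1%), and H3K27ac in both MEF and neither ESC library at 17 (1.27%, background 8.03%). H3K27ac was absent from all MEF and day 3 libraries and present in all day 9 and ESC libraries at 413 regions (30.9%), against 4.05% of all merged regions. A further 126 regions (9.44%, background 12.1%) had H3K27ac in both day 9 libraries and neither ESC library, and 151 (11.3%, background 7.73%) the reverse. No H3K27ac peak in any of the 12 libraries was found at 175 regions (13.1%), against 32.4% of all merged regions. Of the regions without an H3K27ac peak in a library, 15.1% and 17.8% lay within 1 kb of one in the day 9 libraries, between the ESC-alone sites (10.7% and 11.3%) and the day 9 alone sites (18.6% and 21.2%). In the ESC libraries 35.7% and 32.3% did, against 40.5% and 42.8% of ESC-alone sites and 12.9% and 13.0% of day 9 alone sites.

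Acetylation at day 9 distinguished these regions from the 3433 sites that KLF4 occupied in serum ESC and at no earlier stage. At those ESC-alone sites the H3K27ac shares were 17.5% and 19.7% at day 9 and 62.7% and 60.8% in ESC. Across all libraries up to day 6 they lay between 2.1% and 12.6%. The gained and kept regions exceeded the ESC-alone sites by 0.562 points ± 0.0765 (SD, n = 2) for MEF, 1.72 ± 0.652 (n = 3) for day 3, 5.83 ± 2.76 (n = 3) for day 6, 45.9 ± 0.665 (n = 2) for day 9 and 6.39 ± 0.0501 (n = 2) for ESC. The difference depended on the stage (F of 320 over 12 libraries, exact permutation p = 0.00113, adjusted p = 0.00215). The classes stood at most 6.42 points apart in every library of MEF, day 3 and ESC. The gained and kept regions were wider than the ESC-alone sites (median 427 against 256 bp), and their KLF4 peaks ranked higher in ESC, where the ESC-alone median percentile was 47.0 and 60.3. With 200 bp about each centre in place of the whole region, the difference was 39.2 points at day 9 and -4.46 in ESC, so the small excess in ESC turned with the width of the interval while that of day 9 did not. Without the day 3 KLF4 library of EC-EA-3702, which let in regions that this library alone had kept out, the difference was 18.4 points for MEF, 20.1 for day 3, 23.1 for day 6, 52.4 for day 9 and 12.7 for ESC. The ESC difference was also 12.5 and 16.4 points without the ESC KLF4 library of EC-EA-2697 and of EC-EA-2643. The part of the KLF4 rank in the difference was not tested.

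The second set for comparison was the 1483 regions that KLF4 occupied at day 9 and at no other of the 4 stages. H3K27ac overlapped 52.9% and 50.0% of them at day 9, and 13.8% and 11.5% in serum ESC. The share of the day 9 alone sites with H3K27ac was thus lower in ESC than at day 9 in every library. That of the gained and kept regions was not, except under the settings given above that turned the order. The difference between the classes was 4.62 points ± 0.397 (SD, n = 2) for MEF, 3.42 ± 0.487 (n = 3) for day 3, 6.33 ± 2.43 (n = 3) for day 6, 13.1 ± 2.90 (n = 2) for day 9 and 55.5 ± 0.191 (n = 2) for ESC. It depended on the stage (F of 345 over 12 libraries, exact permutation p = 0.000397, adjusted p = 0.00198). Median KLF4 percentiles of the day 9 alone sites at day 9 were 33.1 and 36.5, below those of the gained and kept regions. The smaller differences moved with single KLF4 libraries. Without the day 3 library of EC-EA-3702 they were 22.9 points in MEF, 21.4 for day 3, 23.5 for day 6 and 20.9 for day 9, against 61.0 for ESC. Without the day 6 library of EC-EA-3702 they were 1.25 points in MEF, 0.622 for day 3 and 3.31 for day 6. The day 9 difference was 21.3 and 20.7 points without the first and the second day 9 library. The ESC difference was 25.6 points when an overlap of 50% of the shorter interval was required, and the day 9 difference was 8.25 at q-values of at most 0.01. The part of the KLF4 rank in the day 9 difference was not tested.

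Regions already bound at day 6 had acetylation more often at day 9 than regions bound later. Among the 419 regions with KLF4 in both day 6 libraries, H3K27ac shares were 76.4% and 78.0% at day 9, and among the 414 with KLF4 in neither they were 49.0% and 48.3%. The 502 regions with a day 6 peak in 1 library lay between, at 65.7% and 68.3%. In serum ESC the 3 classes were close, at 70.9% and 68.0%, 69.9% and 69.3%, and 66.4% and 63.5% in the same order. The difference between both and neither was 11.1 points ± 0.342 (SD, n = 2) for MEF, 6.88 ± 1.09 (n = 3) for day 3, 11.3 ± 4.15 (n = 3) for day 6, 28.5 ± 1.69 (n = 2) for day 9 and 4.48 ± 0.0245 (n = 2) for ESC. It depended on the stage (F of 32.7 over 12 libraries, exact permutation p = 0.00295, adjusted p = 0.00369). The difference moved with the peaks used and with single KLF4 libraries. With the top 50% of each list it was 2.39 points in MEF and -4.55 in ESC, and with regions widened by 1 kb it was -0.464 in ESC. Without the day 6 library of EC-EA-3702 it was -1.42 points in MEF, -1.36 for day 3 and 18.4 for day 9, and without that of EC-DG-4040 it was 16.2 in MEF, 11.0 for day 3 and 18.7 for day 9. Without the day 3 library of EC-EA-3702 it was 34.8 points in MEF, 32.9 for day 3, 34.2 for day 6, 34.4 for day 9 and 12.7 for ESC, with the highest mean in MEF. Regions bound in both day 6 libraries also had higher KLF4 ranks at day 9 (median percentile 72.3 and 74.2, against 39.1 and 36.5 for neither). They were wider (median 478 against 373.5 bp) and overlapped promoters more often (10.8% against 4.01%). The part of KLF4 rank, width and promoter overlap in the difference was not tested.

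**Figure D2:**
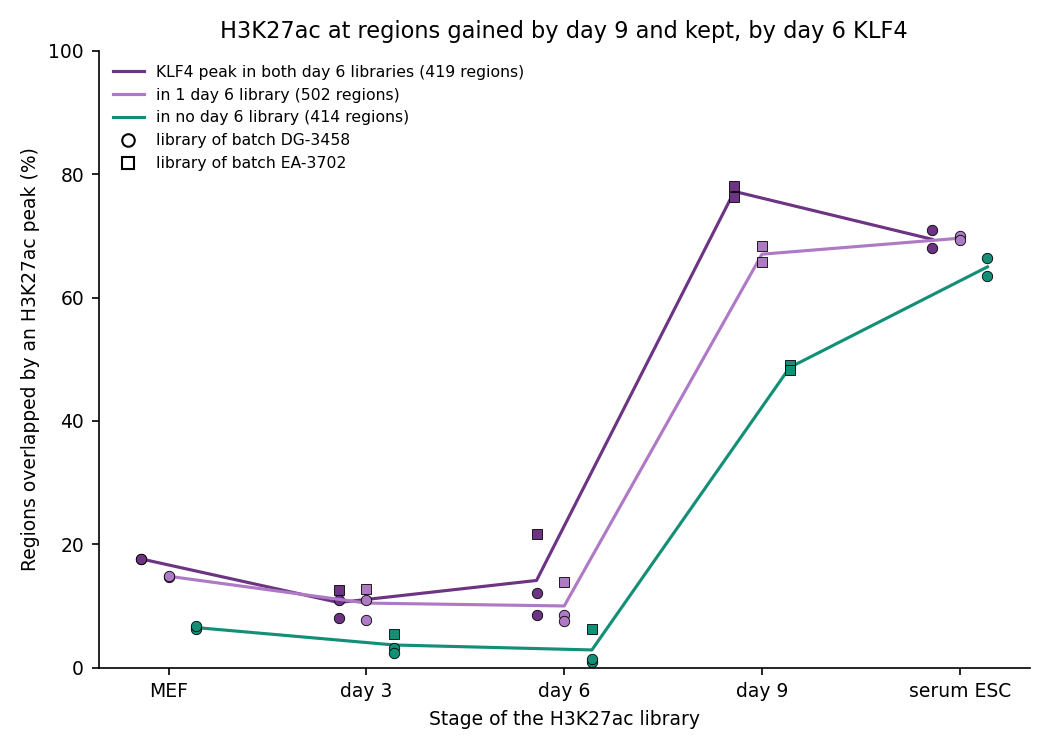
Percent of the gained and kept regions overlapped by an H3K27ac peak (y axis) in each library, by stage (x axis), split by whether KLF4 had a peak in both, 1 or neither of the day 6 libraries. Points are libraries with their batch as the symbol, and lines join stage means. The classes are furthest apart at day 9, at 76.4% and 78.0% for both against 49.0% and 48.3% for neither.

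At day 6 itself, the absence of acetylation from KLF4-bound regions was close to the background. Of the 419 regions with KLF4 in both day 6 libraries, 318 (75.9%) had no H3K27ac peak in any of the 3 day 6 libraries, against 73.8% of all merged KLF4 regions, and 29 (6.92%) had one in all 3, against 14.3%. At day 9, 304 of the same 419 regions (72.6%) had H3K27ac in both libraries, against 41.1% of all merged KLF4 regions. The regions bound at every stage differed at day 6, where 59.9% to 74.6% of them had H3K27ac per library. The 3 day 6 lists were the shortest of the H3K27ac lists, with 17493 to 22462 peaks against 41471 to 88347 in the others, and when all lists of an assay were shortened to equal length by score, which chose 1447 regions, the mean shares were 10.7% for MEF, 8.82% for day 3, 14.1% for day 6, 43.7% for day 9 and 45.3% for ESC. Of the 414 regions without KLF4 at day 6, 386 (93.2%) had no H3K27ac there, and 79 (19.1%) had H3K27ac in both ESC libraries but neither day 9 library, against 18 of 419 (4.30%) among those bound in both day 6 libraries and 7.73% of all merged regions.

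KLF4 remained at most of these regions when ESC were grown in 2i, a medium that holds them in a more uniform naive state. A KLF4 peak was found at 59.5% of the regions in the EC-EA-3702 library and at 66.7% in the EC-DG-3012 library, a mean of 63.1% ± 5.14 (SD, n = 2). Both libraries marked 668 regions (50.0%), against 19.2% of all merged regions, and neither marked 318 (23.8%, background 64.4%). ESC-alone sites had peaks less often, in 50.1% and 56.5%, and day 9 alone sites in 4.2% and 7.5%. Regions bound at every stage had them in 80.4% and 82.4%. By day 6 class, the shares were 69.2% and 70.6% with KLF4 in both day 6 libraries and 54.6% and 64.3% with KLF4 in neither, so that in each of the 2 libraries the first class was higher. With 2 libraries of 1 medium no test across media was made. The peak names inside the list of the EC-EA-3702 library carry the word ESC without 2I, so the value of the EC-DG-3012 library stands on its own as the other estimate.

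**Figure D3:**
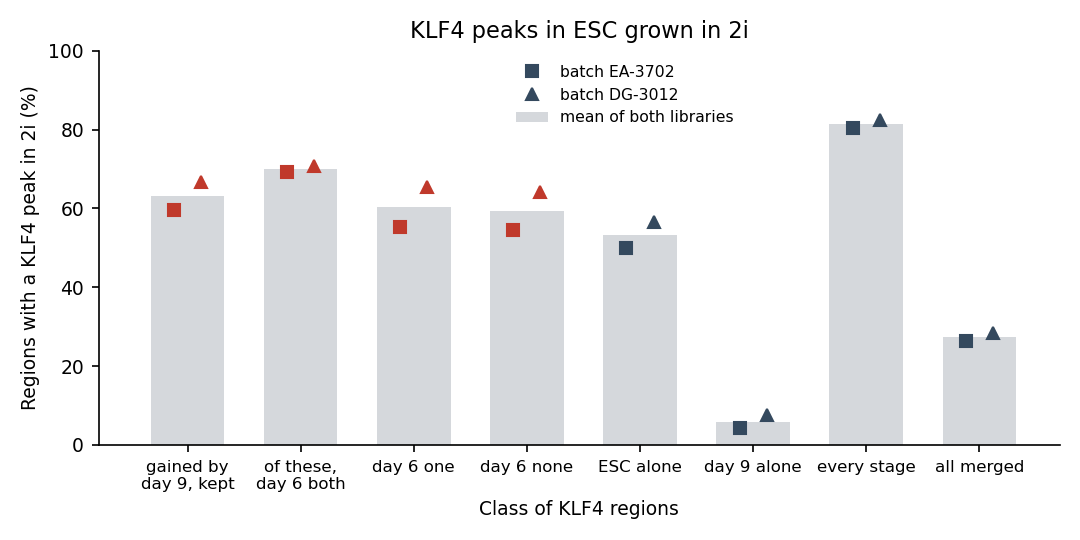
Percent of regions with a KLF4 peak in ESC grown in 2i (y axis) for classes of KLF4 regions (x axis). Bars are means of 2 libraries and symbols are the libraries, squares for EC-EA-3702 and triangles for EC-DG-3012. The gained and kept regions stand at 59.5% and 66.7%, between the ESC-alone sites and the regions bound at every stage.

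Of the 1295 regions on chromosomes that the promoter sequences cover, 106 (8.19%) overlapped a window from 250 bases before to 50 bases after an annotated start, against 12.2% of all merged regions, and the median distance from a region's centre to the nearest start was 30.1 kb, close to the 28.5 kb of all merged regions. Inside a protein-coding gene lay 50.5% of the regions (background 58.7%), within 2.5 kb of a gene's start or end 19.1% (background 26.7%) and within 20 kb of a gene 73.3% (background 76.8%). Promoter overlap was 10.8% among regions with KLF4 in both day 6 libraries and 4.01% among those with KLF4 in neither. It was 3.90% for ESC-alone sites, 2.09% for day 9 alone sites and 40.2% for regions bound at every stage. The median distance to a start was 30.0 kb for ESC-alone sites, 36.3 kb for day 9 alone sites and 5.82 kb for regions bound at every stage.

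**Figure D4:**
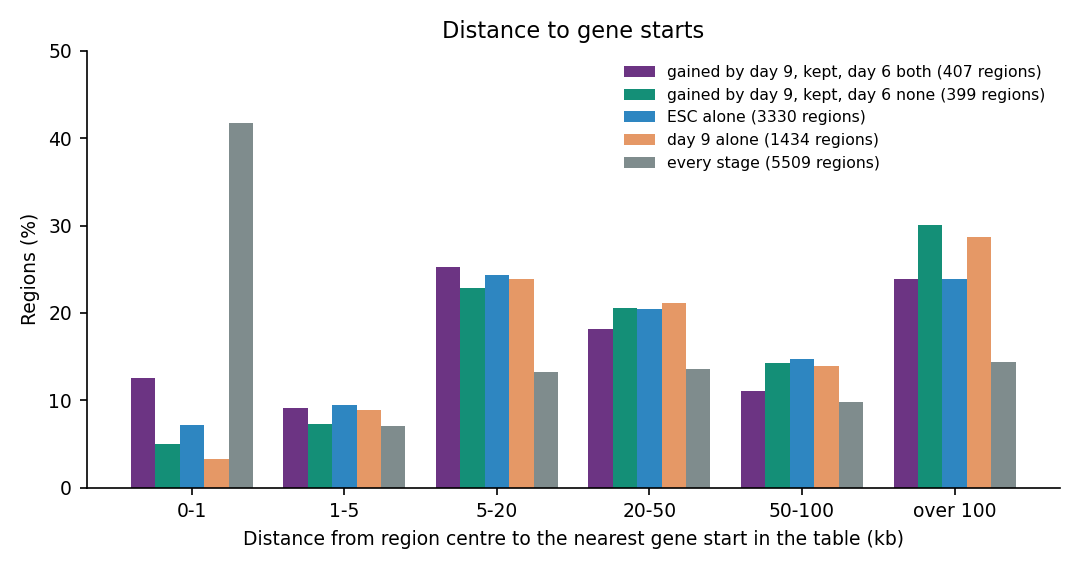
Percent of regions (y axis) by distance in kb from the region centre to the nearest gene start (x axis), for gained and kept regions with KLF4 in both or neither of the day 6 libraries and for 3 other classes. Within 1 kb of a start lay 12.5% of the regions bound in both day 6 libraries, 5.01% of those bound in neither and 41.7% of those bound at every stage.

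Promoters of 108 protein-coding genes overlapped one of the regions. Of the 106 regions at promoters, 59 (55.7%) had H3K27ac in both MEF libraries, against 11.8% of all the gained and kept regions and 29.8% of all merged regions. H3K27ac was absent from MEF and day 3 at 40 (37.7%), and 14 of these had KLF4 in both day 6 and both 2i libraries. The shares of all merged regions with these joint patterns were not computed. Taken singly, absence from both MEF libraries held for 66.5% of all merged regions, and absence from all day 3 libraries for 63.4%. A few genes that make cell junctions or mark epithelia were picked by eye after the list was seen, and stand for no pattern of the whole list: F11r and Cgn (tight junction proteins), Crb3 (apical polarity), Sfn (an epithelial 14-3-3 protein) and Kdf1 (keratinocyte differentiation). F11r, Cgn, Crb3 and Sfn had KLF4 peaks in both day 6 and both 2i libraries and no H3K27ac in MEF or at day 3. F11r, Cgn and Crb3 had H3K27ac in both day 9 libraries and Sfn in 1, and F11r also in 2 day 6 libraries. Kdf1 differed, with KLF4 in neither day 6 and 1 of the 2i libraries and H3K27ac in both MEF, both day 9 and both ESC libraries. Of 115 promoter windows overlapped by a region, 60 (52.2%) held GGGNGTG on either strand, against 31.5% of all 21044 windows. The windows overlapped by a region also had more G and C, with a median of 63.7% against 56.7%, and the part of base composition in the motif share was not tested. For regions bound at every stage the share was 50.1% of 2735 windows, at a median GC content of 66.7%. The letters ACAATG of SOX factors stood in 5.22% of the windows (10.5% of all), the octamer ATGCAAAT in 2.61% (1.68%) the AP-1 letters TGANTCA in 4.35% (7.04%), the TEAD letters GGAATG in 14.8% (13.5%), the CTCF letters CCACNAGG in 10.4% (5.11%) and the ESRRB letters TCAAGGTCA in 0 windows (0.337%). Both strands were searched, and none of these motifs contains another.

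A region lay within 20 kb of 15 of 40 listed pluripotency genes (37.5%), against 1408 of 21627 protein-coding genes (6.51%). For ESC-alone sites the counts were 22 of 40 genes (55.0%) against 14.5% of all genes. The 21 regions near pluripotency genes split evenly by day 6, with 7 bound in both libraries, 7 in 1 and 7 in neither. None had H3K27ac in both MEF libraries (29.8% of all merged regions did), 11 had it in both day 9 libraries (background 41.1%) and 20 in both ESC libraries (background 36.2%). KLF4 was found in both 2i libraries at 17 of them (background 19.2%) and in neither at 3 (background 64.4%). The gene list was drawn up with earlier results of these data known, so these counts are a description.

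At 9 of the 21 regions H3K27ac was in both ESC libraries and neither day 9 library, where KLF4 already had its peaks (the same H3K27ac pattern held for 7.73% of all merged regions). These were at Esrrb, Zfp42 (each with 2 regions), Sall4, Utf1, Tcl1, Tet2 and the distal Nanog region. Esrrb, an orphan nuclear receptor of the pluripotency network, had regions at 41.6 and 57.4 kb from its start, inside the gene. The first, chr12:86463010-86463392, had KLF4 −log10 p of 3.89 and 4.16 at day 6, 6.14 and 16.9 at day 9 and 4.44 and 8.76 in serum ESC. The second, chr12:86478886-86479285, had no day 6 peak, 4.95 and 3.82 at day 9 and 17.5 and 24.0 in ESC. Neither had an H3K27ac peak before ESC, where −log10 p was 55.4 and 52.8 at the first and 102 and 96.9 at the second. Zfp42, the pluripotency marker also called Rex1, had regions at -1.39 and -13.9 kb from its start, with KLF4 −log10 p between 2.76 and 5.22 at day 9. H3K27ac at the nearer Zfp42 region had −log10 p of 77.5 and 63.2 in ESC and no peak in the other 10 libraries. Tet2, which oxidises methylated DNA, showed the same order at a region 14.4 kb inside the gene, with KLF4 −log10 p of 2.96 and 5.05 at day 9 and H3K27ac of 129 and 84.7 in ESC alone.

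Nanog had both kinds of region. At its promoter, chr6:122707225-122707654, KLF4 −log10 p was 8.72 and 3.19 at day 6, 23.9 in both day 9 libraries, 21.5 and 22.7 in serum ESC and 7.98 and 12.6 in 2i. H3K27ac there had a peak in 1 of 3 day 6 libraries (4.40), in both day 9 libraries (9.87 and 7.01) and in both ESC libraries (158 and 131). At -17.1 kb, chr6:122690121-122690570, KLF4 had 5.50 in 1 day 6 library, 4.15 and 8.45 at day 9 and 5.08 and 15.5 in ESC, and H3K27ac 23.8 and 25.4 in ESC, none at day 9 and 3.07 in 1 MEF library. The promoter region thus had H3K27ac in every day 9 and ESC library, and the distal one had it in the ESC libraries and 1 MEF library.

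Nr5a2, Klf2, Tdgf1, Nr0b1, Mycn, Mybl2 and Spp1 had H3K27ac in both day 9 and both ESC libraries at all of their regions. The Nr5a2 promoter region, chr1:136953489-136954306, had the highest KLF4 values at day 9 of the 21 regions, 63.2 and 79.9, and had 20.9 and 61.6 at day 6. Its H3K27ac −log10 p was 39.2 and 53.3 at day 9 and 84.2 and 56.0 in ESC, with no peak in the 8 earlier libraries. At Klf2, a KLF family member of naive pluripotency, the region at 15.4 kb had KLF4 of 18.7 and 21.1 at day 9 and 30.7 and 45.2 in ESC. Tdgf1, a Nodal co-receptor, had a region at -1.51 kb with no KLF4 at day 6 and H3K27ac of 33.8 and 44.4 at day 9. Both Mycn regions had H3K27ac at day 6 as well, 1 in 1 library and the other in 2. Dnmt3a, a de novo DNA methyltransferase, was the exception: its region at -11.2 kb had KLF4 in all 8 libraries from day 6 on, with 28.0 and 35.2 in 2i, and no H3K27ac peak in any library.

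**Figure D5:**
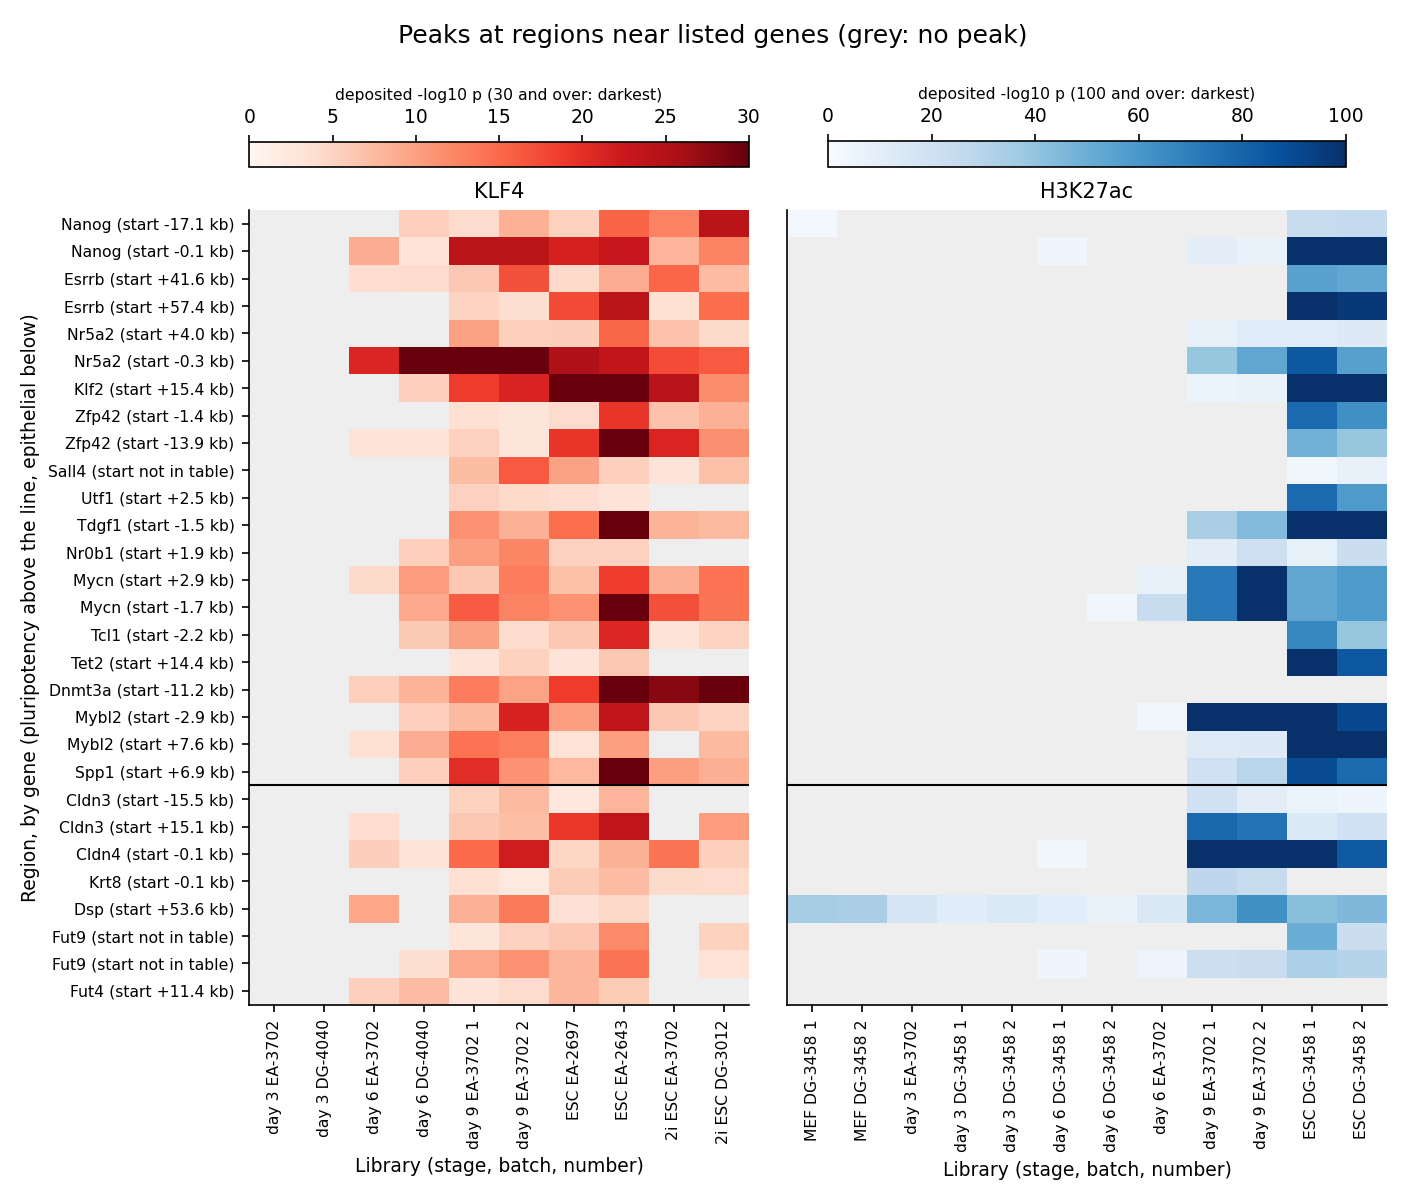
Deposited −log10 p of the KLF4 peak (left) and the H3K27ac peak (right) at gained and kept regions within 20 kb of listed pluripotency genes (above the line) and epithelial genes (below), with regions as rows and libraries as columns; grey means no peak. KLF4 is blank at day 3 by the rule, and H3K27ac fills in at day 9 for some rows and in ESC for most.

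Of 18 listed epithelial genes, 7 (38.9%) had a region within 20 kb, against 6.51% of all genes. The count was the same for ESC-alone sites (7 of 18), and it was 6 of 18 for day 9 alone sites and 12 of 18 for regions bound at every stage. The count for the gained and kept regions was 3 with the top 50% of each list, 4 at q-values of at most 0.01 and 12 without the ESC library of EC-EA-2697. Of the 9 regions, 7 had H3K27ac in both day 9 libraries (background 41.1%) and 6 in both ESC libraries (background 36.2%), and 2 had KLF4 in both 2i libraries (background 19.2%). The Cldn4 promoter region, chr5:134946757-134947263, had KLF4 −log10 p of 14.8 and 22.0 at day 9 and 4.79 and 8.25 in serum ESC, and H3K27ac of 131 and 130 at day 9 and 99.3 and 83.8 in ESC. The Krt8 promoter region, chr15:102004293-102004637, had KLF4 −log10 p of 3.56 and 2.09 at day 9 and 5.82 and 7.39 in ESC. It had H3K27ac at day 9 (27.7 and 24.3) but in neither ESC library. Cldn3, another claudin, had regions at -15.5 and 15.1 kb with H3K27ac in all day 9 and ESC libraries. The region near the desmosomal gene Dsp lay outside that gene, 53.6 kb from its start, and overlapped the Snrnp48 promoter. It had H3K27ac in all 12 libraries. Fut9 and Fut4 encode fucosyltransferases that can make the SSEA1 epitope. At Fut9, 2 regions had H3K27ac in both ESC libraries and 1 of them in both day 9 libraries. The Fut4 region, which also overlaps the Piwil4 promoter, had none in any library.

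The shares of the other lists were closer to the 6.51% of all protein-coding genes. Of 28 listed fibroblast genes, 3 (10.7%) had a region within 20 kb: Snai1 at its promoter, Runx2 and Loxl1. The Snai1 promoter region had KLF4 in 1 day 6 library (10.3), 3.30 and 7.29 at day 9 and 3.29 and 3.36 in ESC. H3K27ac had a peak there in 1 day 3 library (4.35) and 1 ESC library (5.06), and in none of MEF, day 6 or day 9. Loxl1, which crosslinks elastin and collagen, had 2 adjoining regions with H3K27ac in both MEF, both day 9 and both ESC libraries. Of 15 listed genes of LIF, BMP and STAT3 signalling, Smad7, an inhibitor of TGF-beta and BMP signals, was the 1 with a region (6.67%), against 6 of 15 for ESC-alone sites. Of 19 Nodal, FGF and WNT genes, Etv4 and Tcf7l1 (10.5%) had one, against 5 of 19 for ESC-alone sites.

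The regions with the best mean rank in the day 9 and ESC libraries were not at listed genes. Among those bound in both day 6 libraries they lay inside Tnrc18 and within 6.93 kb of Gapvd1, Kcnj1, Gfi1b and Rfx2. The Tnrc18 region, chr5:142782614-142783326, had KLF4 −log10 p of 19.6 and 29.0 at day 6, 67.2 and 75.2 at day 9, 42.0 and 58.4 in serum ESC and 82.0 and 17.7 in 2i. All 5 had H3K27ac in both day 9 libraries and none in MEF, day 3 or day 6. Among those bound in neither day 6 library the best lay inside Pax5 and Ccnjl or had Castor2, Pik3c3 and Psme4 as nearest genes, at 355, 26.8 and 21.8 kb. Psme4 and Ccnjl had H3K27ac in both day 9 and both ESC libraries, Pik3c3 in both ESC libraries, and Castor2 and Pax5 in 1 library each.

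Strong KLF4 occupancy and acetylation could also part. Tns3, a focal adhesion protein gene, and Mgat5b, a glycosyltransferase gene, had the best-ranked regions without H3K27ac at day 9. The Tns3 region, chr11:8671596-8672100, had KLF4 −log10 p of 20.5 and 24.0 at day 9 and 16.0 and 58.2 in ESC, and H3K27ac of 21.5 and 19.9 in ESC alone. Mgat5b had 18.5 in both day 9 libraries and H3K27ac of 20.5 and 19.6 in ESC alone. The weakest regions that did have H3K27ac at day 9 lay at Tppp3 and Kdf1. KLF4 −log10 p at Tppp3 was 2.42 and 3.52 at day 9, beside H3K27ac of 68.6 and 97.7. The weakest without H3K27ac at day 9, with Foxo1 and Vamp9 as nearest genes, had no H3K27ac in any library and lay 255 and 177 kb from those genes.

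The labelled cells were checked on marker genes with an H3K27ac peak within 2.5 kb. All 6 pluripotency markers had one in each day 9 and ESC library, against 1 or 2 in MEF, day 3 and day 6 libraries. Fibroblast markers had one at 6 of 6 in MEF, 4 or 5 at day 3, 3 at days 6 and 9, and 2 or 3 in ESC. The 7 markers of other cell types were Ptprc, Pecam1, Kdr, Sox17, Gata4, Gata6 and Cdx2. Of these, 4 or 5 had such a peak in MEF, 0 to 2 at day 3, 0 at day 6, 1 or 3 at day 9 and 6 in ESC. The MEF and ESC lists were also the longest, with 81231 to 88347 peaks against 17493 to 50836 in the others. The part of list length, feeder cells and other cell types in these counts and in the H3K27ac shares was not tested.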

How the data were processed

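Peak lists of 22 libraries were analysed, 12 of H3K27ac and 10 of KLF4; 13 input libraries were not analysed here. Per the submitters' processing notes, reads were handled with cutadapt 1.8.1, Bowtie2 2.2.5, deepTools 2.3.6 and MACS2 2.1.1 on mm10, and the settings are not given in the sources used here. Each deposited list gives for each peak a score, a fold enrichment, and −log10 of the p-value and q-value, by the authors. Each list belongs to 1 library, so replicates were not pooled, and depth is unknown. The lists hold 17493 to 88347 H3K27ac and 21129 to 34640 KLF4 peaks on the chromosomes used, and begin at a −log10 p of about 2.

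Peaks were merged and overlapped at 1 bp with Python 3.11.15, numpy 2.4.6 and pandas 2.3.3. The percent of regions with an H3K27ac peak was computed per library, and stages were compared by exact permutation of stage labels over libraries, with a 0.05 threshold and Benjamini-Hochberg adjustment over 5 tests. The tests were checked on simulated data. The members, gene lists and comparisons were chosen with earlier results of these data known. Regions named in the text were the 5 best-ranked with and without day 6 KLF4, the 2 best and 2 worst with and without day 9 H3K27ac, and those within 20 kb of listed genes, of which 1 is not reported here. Promoters of unlisted genes, microRNA genes and clusters are named outside this rule, chosen after their values were seen. Gene positions and promoter sequences came from RefSeq GRCm38.p6, the assembly named mm10, and promoter sequences covered 19 chromosomes. Alternatives changed the peaks used, the overlap, the interval, the libraries, the permutation blocks and the scale.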

Additional observations from a re-analysis of the deposited data

How the results depend on the processing

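The differences between stages, and the dependence on stage of the day 6, ESC-alone and day 9 alone differences, passed the threshold under all 29 alternatives run for each. The pattern behind a pass could still change: without the day 3 KLF4 library of EC-EA-3702 the day 6 difference was 34.8, 32.9, 34.2 and 34.4 points from MEF to day 9, with the highest mean in MEF, and 12.7 in ESC. The slope from day 3 to day 9 missed it under 4 of 25: 8.65 points per day with labels permuted within batches (exact permutation p = 0.0694), and, with a library left out, 9.17 (without the second day 3 library of EC-DG-3458), 7.15 and 6.99 (without either day 9 library). Over all single libraries left out it ran from 6.81 to 9.53. The number of regions was 673 with the top 50% of each list and 745 at q-values of at most 0.01, of which 340 and 457 of the 1335 regions were overlapped, and from 1336 to 2448 with 1 library left out (2448 without the day 3 library of EC-EA-3702, 2268 without the ESC library of EC-EA-2697). Of 53 regions chosen for naming, 22 and 28 were still members under these settings, among them the Nanog promoter region but not those of Cldn4, Krt8 and Snai1. The percent with a KLF4 peak in 2i was 53.9 without the ESC library of EC-EA-2697. The percent near genes was 50.5 inside a gene and 73.3 within 20 kb, against 19.1 within 2.5 kb of a gene's start or end. The cause of these shifts was not tested.

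Replicate numbers did not pair the EC-DG-3458 H3K27ac libraries of MEF, day 3, day 6 and ESC. Deviations of same-numbered libraries correlated at -0.00485 to 0.0085 between these stages over 72197 regions. Day 9, which has no library of that batch, was not in this check. With the replicate number as a block, the values stayed at 306, 8.65, 32.7, 320 and 345 in the order of the tests above (stages, slope, day 6, ESC alone, day 9 alone), and no call changed. The interval and 2i-library alternatives were chosen after seeing the data. Motif windows about region centres were not run, since no genome was used here. Lists from unknown depths limit every share, as a missing peak does not show missing signal.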

Other observations

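MicroRNA genes lay close to a few of the regions, and those named here were chosen after their values were seen. A region lay within 10 kb of 23 of 1005 hairpins in the RefSeq table of GRCm38.p6. The same count for other KLF4 regions was not made, so it shows no preference for hairpins. The Mir200b, Mir200a and Mir429 cluster, which represses mesenchymal regulators such as Zeb1 and Zeb2, had 1 region, chr4:156059772-156060156, at 4.02, 4.79 and 5.78 kb from the hairpins. Its KLF4 −log10 p was 5.55 and 2.09 at day 6, 4.79 and 3.31 at day 9 and 4.21 and 4.29 in serum ESC, with no peak in 2i. H3K27ac there had −log10 p of 65.5 and 76.6 at day 9 and 9.57 and 3.70 in ESC, and no peak in the 8 libraries of MEF, day 3 and day 6. The Mir296 and Mir298 pair had a region at 2.41 and 2.87 kb, and Mir32 one at 0.629 kb, each with H3K27ac in both day 9 and both ESC libraries and in none before. This pattern held for 6 of the 20 regions near hairpins (30.0%). With day 6 left out of the pattern, it held for 30.9% of all the gained and kept regions and 4.05% of all merged regions. Of the 20, 4 had H3K27ac in both MEF libraries (Mir339, Mir7046, Mir677 and Mir12193). That is 20.0%, against 11.8% of the gained and kept regions and 29.8% of all merged regions. No day 9 peak was found at 5 (25.0%), against 29.6% and 51.0% in the same order.

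Most of the regions stood alone. Within 12.5 kb of another lay 123 of 1335 (9.21%), against 18.3% of ESC-alone sites and 6.47% of day 9 alone sites, and 8 clusters held 3 or more. The clusters named here were chosen after their values were seen. The largest held 4 regions over 21.4 kb at Arhgap45 and Gpx4, chr10:80024960-80046360, with H3K27ac in both ESC libraries at 3 of them and in both day 9 libraries at 1. The 3 regions at Epha2, an ephrin receptor gene, and the 3 at Foxi3, a forkhead factor gene, all had H3K27ac in both day 9 and both ESC libraries. So did those at Med13l, at Sntg1 and at AU018091 and Nlrp12. At Sh3gl2, 3 had it in both day 9 libraries and 2 in both ESC libraries. At Fkbp4 and Pzp the counts were 0 and 2. H3K27ac in all of these libraries was found at 44.0% of the gained and kept regions and 26.1% of all merged regions.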
